A study of Mus musculus with 15 samples.

Results

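The sterol exporters and other direct targets of the liver X receptors (LXRs) were followed as a list of 9 genes: Abcg5, Abcg8, Abca1, Abcg1, Pltp, Mylip, Smpdl3a, Lpcat3 and Arl4c. Their probe sets were found by gene symbol in the annotation of the array. Of the 9 genes, 8 had a probe set, and all 12 of their probe sets were bright enough to be tested, among 20342 probe sets and 10521 genes tested in the whole series. Arl4c, a small ADP-ribosylation factor-like GTPase, had no probe set under its symbol in the annotation used and was not analysed here.

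Livers of 15 male C57BL/6J mice were measured, with 1 array per mouse. The CL+CX group (5 mice) was given a high-cholesterol, high-fat diet (CL diet) with β-cryptoxanthin, a carotenoid of citrus fruit. The CL group (5 mice) was given the CL diet alone, in which 60% of the weight was cocoa butter, 38.23% was chow, 1.25% was cholesterol and 0.5% was the bile salt sodium cholate, and the NC group (5 mice) was given CRF-1 chow. Feeding began at 8 weeks of age and lasted 12 weeks. The dose of β-cryptoxanthin is given as 0.003% of the diet in the treatment text and the methods and as 0.005% in the titles of the CL+CX samples. The labels name no transgene or deletion. CL+CX against CL asks what the carotenoid changes on the CL diet, and CL against NC asks what the diet changes. The CL diet combines sterol, bile salt and fat, so their parts in the second comparison cannot be told apart.

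LXRα (Nr1h3) and LXRβ (Nr1h2) are nuclear receptors that bind oxidised derivatives of cholesterol and act as heterodimers with retinoid X receptors (RXRs). Their targets move cholesterol out of cells and out of the body: ABCG5 and ABCG8 form a heterodimer that secretes sterols from hepatocytes into bile, and ABCA1 and ABCG1 load cholesterol onto apolipoprotein A-I and onto high-density lipoprotein (HDL). Cholesterol also holds back SREBP2, the transcription factor that drives cholesterol synthesis, so the LXR and SREBP2 programmes commonly run in opposite directions in liver.

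The values are MAS5 signals, a measure of probe set brightness, after each array was scaled to the same 75th percentile (54.1), which put the array medians at 11.3 to 13.5. A probe set was called where the adjusted p of limma, over all probe sets tested, was under 0.05, and differences are in log2 units with their standard error (SE). Where a gene had several probe sets, the one with the highest mean signal stands for it. Nothing in the labels says that any liver was pooled, and the p-values measure the spread between mice. In whole liver, fewer cells of a type and less RNA per cell cannot be told apart.

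Abcg5 and Abcg8 lie head to head on mouse chromosome 17 and are transcribed away from each other. In the RefSeq promoter windows of the mouse build GRCm38.p6 (250 bases before to 50 after each start), the window of Abcg5 and that of the nearer of the 2 listed starts of Abcg8 shared 209 bases, at chr17:84682962-84683170. This shared stretch is shown because both genes start from it, on the strand of Abcg8, with the 109 bases between the 2 starts in capitals.

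Abcg5 and Abcg8 shared window: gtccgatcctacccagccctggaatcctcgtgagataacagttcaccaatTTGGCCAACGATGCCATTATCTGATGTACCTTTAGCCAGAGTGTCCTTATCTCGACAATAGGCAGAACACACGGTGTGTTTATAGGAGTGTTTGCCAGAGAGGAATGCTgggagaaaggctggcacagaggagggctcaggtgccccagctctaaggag

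The other listed start of Abcg8 lay 6708 bases from that of Abcg5, counted between the 2 start bases, and shared no base of the window. The binding element known for LXR with RXR is a direct repeat spaced by 4 bases (DR4, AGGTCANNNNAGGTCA), and it was searched on both strands of the 8 windows of the 7 members that matched the RefSeq table (Abcg1 and Smpdl3a are the others). With up to 3 mismatches over the 12 fixed letters, 2 of the 8 windows held a match, those of Abca1 and Arl4c, and 21.9% of the 32851 promoter windows of the table did. With up to 2 mismatches, none of the 8 windows held one, against 3.02% of the table. The half-site AGGTCA alone, which lies within the DR4, was in none of the 8 windows and in 16.3% of the table, counting both strands. The Abca1 window (chr4:53159846-53160145, minus strand, GRCm38.p6) is shown as the only measured member's window with a match. The match lies on the opposite strand and reads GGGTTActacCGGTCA there, with the spacer in lower case, and its bases stand in capitals in the window.

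Abca1 window: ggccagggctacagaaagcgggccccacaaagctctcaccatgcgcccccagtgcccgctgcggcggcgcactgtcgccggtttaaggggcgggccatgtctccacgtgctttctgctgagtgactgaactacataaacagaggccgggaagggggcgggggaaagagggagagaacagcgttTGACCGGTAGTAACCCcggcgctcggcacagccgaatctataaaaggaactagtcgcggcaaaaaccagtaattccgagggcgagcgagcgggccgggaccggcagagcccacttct

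Abcg5 and Abcg8 were the members with the highest signals in CL+CX livers relative to both other diets. Abcg5 had signals of 1304, 1418, 1221, 1094 and 1342 in CL+CX livers, 680, 1081, 1071, 717 and 849 in CL livers, and 381, 592, 414, 446 and 368 in NC livers. The 3 diets did not overlap, and the order was CL+CX, CL, NC. On the CL diet Abcg5 rose by 0.99 ± 0.16 over NC livers (log2, SE, adjusted p = 0.00117), which is 1.99-fold (95% interval 1.57 to 2.53). CL+CX livers stood a further 0.56 above CL livers (95% interval 0.21 to 0.90), but the adjusted p was 0.072, so this step was not called. CL+CX livers were 2.93-fold above NC livers (adjusted p = 0.000158).

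Abcg8 had signals of 405, 464, 435, 348 and 427 in CL+CX livers, 217, 265, 318, 176 and 258 in CL livers, and 145, 200, 135, 168 and 190 in NC livers. All CL+CX livers lay above all CL livers, whereas 1 CL liver (176) lay within the range of the NC livers. Abcg8 rose in CL+CX livers to 1.71-fold of CL livers (0.77 ± 0.16, log2, SE, adjusted p = 0.0227), and it rose in CL livers to 1.46-fold of NC livers (0.55 ± 0.16, adjusted p = 0.037). Over both steps together, CL+CX livers were 2.5-fold above NC livers (adjusted p = 0.000346). Of the 10521 genes, Abcg8 was the only one called higher in both steps (0.00950%). The steps share the CL mice.

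The 2 partner genes were high or low in the same mice in CL livers, and only in part in CL+CX and NC livers. In CL+CX livers, mouse 2 had the highest and mouse 4 the lowest signal of both genes. CL+CX mouse 3, however, had the second lowest Abcg5 (1221) and the second highest Abcg8 (435). In CL livers, mice 2 and 3 had the 2 highest and mice 1 and 4 the 2 lowest signals of both, and in NC livers mouse 2 had the highest of both. NC mouse 5, however, had the lowest Abcg5 (368) and the second highest Abcg8 (190). The coefficient of variation was 9.7% in CL+CX livers, 21.6% in CL livers and 20.5% in NC livers for Abcg5, and 10.5%, 21.7% and 16.8% in the same groups for Abcg8.

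The calls of Abcg8 were close to the threshold. The CL+CX step was lost without CL mouse 1 (adjusted p = 0.0509), CL+CX mouse 2 (0.0631) or CL+CX mouse 3 (0.069), and the CL step was lost without NC mouse 1, 3 or 4 or CL mouse 3 or 5 (0.0603 to 0.0926). The CL step was also lost with no filter (adjusted p = 0.129) or with only the 2 groups compared (0.085), and the CL+CX step with no filter (0.124), on the signals as deposited (0.136) or with only the 2 groups compared (0.0575), while the Abcg5 rise in CL livers was called without any single mouse (highest adjusted p = 0.00466). The β-actin probe sets at the 3′ and 5′ ends, which read RNA integrity and labelling, differed by 1.07 ± 0.101 in CL+CX livers, 0.822 ± 0.0968 in CL livers and 0.937 ± 0.0859 in NC livers (log2, SD, n = 5 each). With this difference as a covariate, Abcg8 stood 1.02 higher in CL+CX than in CL livers, without a call (adjusted p = 0.558), and 0.435 higher in CL than in NC livers, again without a call (adjusted p = 0.18). The arrays of CL+CX livers (0.949 to 1.17) and of CL livers (0.699 to 0.945) did not overlap in this difference, so in this step RNA integrity and diet cannot be told apart.

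**Figure D1:**
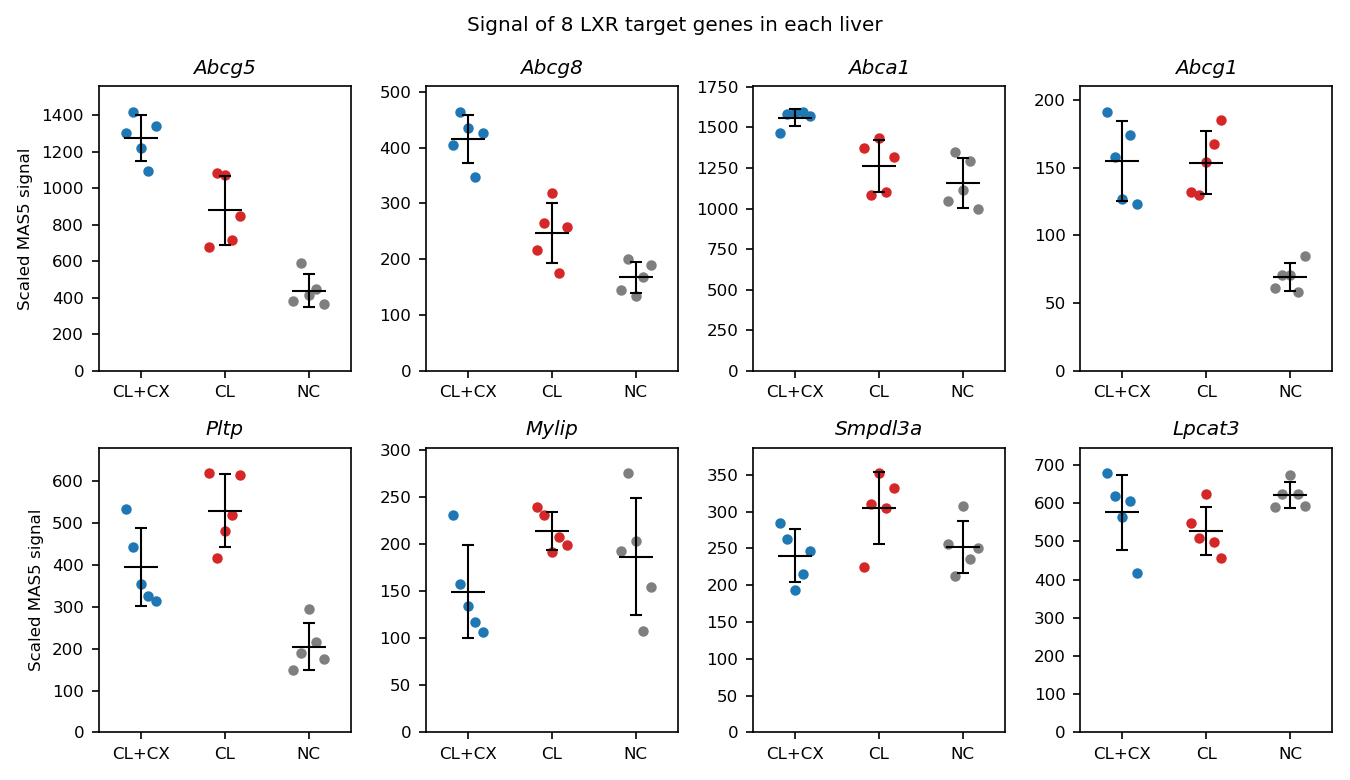
Scaled MAS5 signal (vertical axes, linear, from 0) of the 8 measured LXR targets in each liver, with CL+CX, CL and NC from left to right; each point is 1 mouse, and the mark and bar give the mean ± SD (n = 5). Abcg5 and Abcg8 step down by diet, with all CL+CX livers above all CL livers, whereas the Abcg1 points of CL+CX and CL livers overlap.

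Abca1, the full transporter that starts HDL formation, was the other member whose CL+CX livers all lay above the CL livers. Its brightest probe set had signals of 1464, 1583, 1590, 1595 and 1570 in CL+CX livers, 1375, 1086, 1436, 1100 and 1318 in CL livers, and 1044, 1345, 1114, 1291 and 997 in NC livers. The CL+CX livers spanned 1.09-fold from lowest to highest, while CL livers spanned 1.32-fold and NC livers 1.35-fold. Abca1 did not pass the test between CL and NC livers (0.13 ± 0.12, log2, SE, adjusted p = 0.531, 95% interval -0.12 to 0.38) or between CL+CX and CL livers (0.31 ± 0.12, adjusted p = 0.15, interval 0.06 to 0.56). CL+CX livers were 1.36-fold above NC livers (adjusted p = 0.0287).

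This last call was lost with no filter (adjusted p = 0.118), the β-actin covariate (0.0668) or the replicate block (0.0641). It was also lost without NC mouse 1, 3 or 5, or CL+CX mouse 2, 3, 4 or 5 (adjusted p 0.0568 to 0.0754). The 2 other Abca1 probe sets averaged 47.8 and 21.8 in CL+CX livers, 46.2 and 16.3 in CL livers, and 45.4 and 19.3 in NC livers, and neither was called in any comparison. With the mean of the 3 probe sets, the difference between CL+CX and NC livers was 0.234 (adjusted p = 0.265).

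Abcg1, which works as a homodimer and exports cholesterol to mature HDL, is prominent in macrophages. It had signals of 191, 158, 127, 174 and 123 in CL+CX livers, 132, 130, 154, 167 and 185 in CL livers, and 61.0, 71.0, 70.4, 58.4 and 84.8 in NC livers. Every liver on either CL diet lay above every NC liver, and the CL+CX and CL livers overlapped throughout. Abcg1 rose to 2.22-fold in CL livers over NC livers (1.15 ± 0.15, log2, SE, adjusted p = 0.000281), and CL+CX livers stood as high above NC livers (1.15, adjusted p = 0.000661). Between CL+CX and CL livers the difference was 0.00 (adjusted p = 0.997, 95% interval -0.33 to 0.33) in this probe set.

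The dimmer Abcg1 probe set lay near the array medians. It had signals of 20.0, 32.5, 1.31, 21.2 and 19.9 in CL+CX livers, 24.3, 18.3, 34.4, 39.6 and 34.2 in CL livers, and 7.38, 10.3, 20.6, 8.45 and 8.99 in NC livers. CL+CX mouse 3 alone was close to the floor of 1. This probe set was called in no comparison, and its CL+CX livers differed from CL livers by -1.17 (95% interval -2.55 to 0.21). With the mean of both probe sets the difference between CL+CX and CL livers was -0.586 (adjusted p = 0.401), and the difference of CL+CX over NC livers was 0.735 and no longer called (adjusted p = 0.21).

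Pltp, the phospholipid transfer protein that remodels HDL in plasma, had the largest rise on the CL diet among the 8 genes. It had signals of 533, 443, 354, 325 and 314 in CL+CX livers, 618, 415, 481, 519 and 614 in CL livers, and 148, 189, 295, 215 and 175 in NC livers. All livers on either CL diet lay above all NC livers, and 2 of the CL+CX livers lay within the CL range. Pltp rose to 2.64-fold in CL livers over NC livers (1.40 ± 0.19, log2, SE, adjusted p = 0.000341). CL+CX livers were 1.94-fold above NC livers (adjusted p = 0.00725), and their difference from CL livers was -0.44 (95% interval -0.85 to -0.03, adjusted p = 0.221), which was not called.

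A second Pltp probe set gave the same order of group means. It had signals of 121, 79.1, 74.7, 73.8 and 71.8 in CL+CX livers, 133, 78.3, 176, 135 and 194 in CL livers, and 32.6, 66.2, 85.4, 37.8 and 45.4 in NC livers. CL+CX mouse 1 and CL mouse 2 stood apart from their groups towards the other diet. The second probe set rose in CL over NC livers (1.45, adjusted p = 0.00372), its CL+CX livers differed by -0.73 from CL livers (adjusted p = 0.156), and by 0.72 from NC livers (adjusted p = 0.111).

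Mylip, Smpdl3a and Lpcat3 were called in no comparison. Mylip encodes IDOL, the ubiquitin ligase that sends lipoprotein receptors to the lysosome. It had signals of 231, 158, 134, 117 and 107 in CL+CX livers, 239, 231, 192, 207 and 199 in CL livers, and 193, 275, 203, 108 and 154 in NC livers. In CL+CX livers 4 of 5 mice lay below all CL livers and mouse 1 did not. The difference between CL+CX and CL livers was -0.57 ± 0.23 (log2, SE, 95% interval -1.06 to -0.07, adjusted p = 0.186), and without CL+CX mouse 1 it was -0.74 (adjusted p = 0.073). CL livers differed from NC livers by 0.26 (95% interval -0.24 to 0.75).

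Smpdl3a, a secreted phosphodiesterase of the acid sphingomyelinase family, had signals of 284, 263, 193, 215 and 247 in CL+CX livers, 225, 311, 352, 305 and 332 in CL livers, and 256, 212, 308, 236 and 251 in NC livers. CL mouse 1 was low and lay among the CL+CX livers, which all lay below the 4 other CL mice. The difference between CL+CX and CL livers was -0.34 (95% interval -0.65 to -0.03, adjusted p = 0.212), and that between CL and NC livers was 0.27 (95% interval -0.05 to 0.58). On the signals as deposited, without scaling, the CL difference was 0.582 and called (adjusted p = 0.0429), but there the median of all probe sets was itself 0.23 higher in CL than in NC livers.

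Lpcat3, the acyltransferase that puts polyunsaturated chains into phosphatidylcholine, had signals of 678, 618, 565, 606 and 416 in CL+CX livers, 548, 508, 624, 499 and 456 in CL livers, and 590, 624, 674, 625 and 593 in NC livers. NC livers spanned only 1.14-fold, and 4 of the 5 CL livers lay below all of them. The difference between CL+CX and CL livers was 0.12 (95% interval -0.16 to 0.40), and that between CL and NC livers was -0.24 (95% interval -0.52 to 0.04, adjusted p = 0.252), with the sign turned to 0.072 on the signals as deposited.

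**Figure D2:**
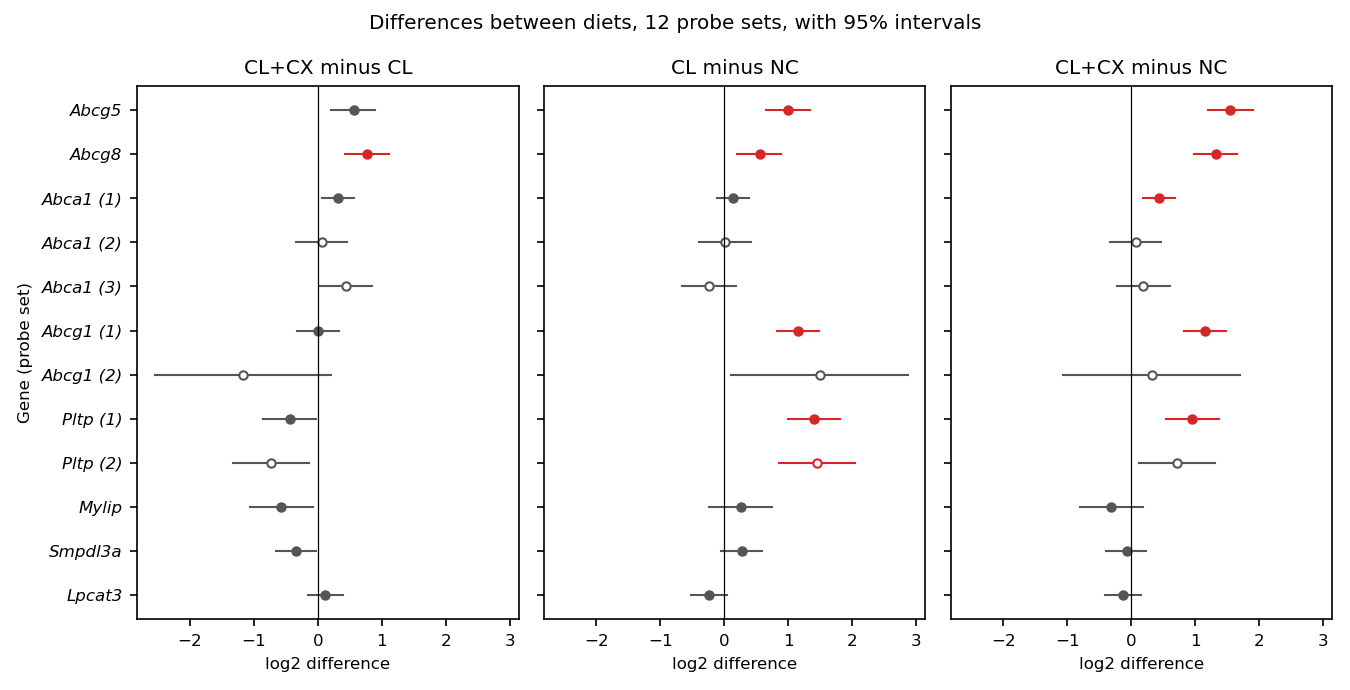
Differences between diets in log2 units (horizontal axes) for the 12 probe sets of the 8 genes, with 95% intervals as lines; filled points are the probe set that stands for the gene, open points the others, and red marks an adjusted p under 0.05. Between CL+CX and CL livers only Abcg8 is red, whereas 5 probe sets are red between CL and NC livers and 5 between CL+CX and NC livers.

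Counted together, 1 of the 8 genes rose and none fell in CL+CX against CL livers, where 1.48% of all genes tested were called higher and 1.78% lower. In 3 of the 8 (Abca1, Abcg5 and Abcg8) all CL+CX livers lay above all CL livers, against 2.80% of all genes, and 1 of the 12 probe sets was called higher, against 1.58% of all probe sets. Between CL and NC livers 4 of the 8 rose (Abcg1, Abcg5, Abcg8 and Pltp) and none fell, with 7.20% of all genes called higher and 6.76% lower. The groups did not overlap in 3 of them (6.10% of all genes), and 5 of the 12 probe sets were called higher (5.90% of all probe sets). In CL+CX against NC livers 5 rose (the same 4 and Abca1) and none fell, with 5.11% of all genes called higher and 4.85% lower. The groups did not overlap in any of these 5 (5.90% of all genes), and 5 of the 12 probe sets were called higher (4.81% of all probe sets). The median difference of the 8 genes was 0.06 in CL+CX against CL livers (0.023 over all genes tested), 0.41 in CL against NC livers (-0.075 over all genes) and 0.70 in CL+CX against NC livers (-0.038 over all genes). None of the 8 was called in opposite directions in the diet and the carotenoid steps with a CL+CX mean nearer to NC, as 1.42% of all genes were.

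In their brightest probe sets, the members differed between mice of one diet in a way that cut across the sterol exporters. In CL+CX livers, mouse 1 had the highest signal of Pltp, Abcg1, Mylip, Smpdl3a and Lpcat3 and the lowest of Abca1 in these probe sets. Mouse 1 was highest in the second Pltp probe set too (121), but in the dimmer Abcg1 probe set mouse 2 was (32.5, with 20.0 in mouse 1). In both dimmer Abca1 probe sets mouse 4 was lowest (32.6 and 17.0), and mouse 1 had the highest signal of the brighter of them (57.0). Among CL+CX livers, mouse 1 also had the highest summed signal of 12 macrophage markers (5534). The sums were 3235, 2252, 2984 and 4154 in the other CL+CX mice, 6932 to 8447 in CL livers and 1130 to 2488 in NC livers. The 3 groups did not overlap except for 1 CL+CX mouse (2252) within the NC range. Mouse 5 of the CL+CX group had the second highest sum of the 12 macrophage markers in that group (4154). Its signals of Pltp (314), Abcg1 (123), Mylip (107) and Lpcat3 (416) in the brightest probe sets were the lowest of the CL+CX livers, however. Its Smpdl3a signal (247) was in the middle. Of these 12 markers, 10 fell and none rose in CL+CX against CL livers (median -1.27), and all 12 rose in CL against NC livers (median 1.86). Over all genes, 1.78% were lower in CL+CX against CL livers, and 7.20% were higher and 6.76% lower in CL against NC livers. The count of 10 was 2 without CL+CX mouse 2, 3 or 4 and 5 to 6 without CL mouse 1, 3 or 4. It was 0 with no filter or the β-actin covariate, 3 without scaling, and 5 with the replicate block or a fit of the 2 groups alone, whereas the count of 12 held in all of these. Among the brightest of their probe sets were those of Ctss, a lysosomal protease (mean signal 809 in CL+CX livers, 1590 in CL livers and 333 in NC livers), and Lyz2, macrophage lysozyme (599, 1455 and 182 in the same groups), and none of the 12 lay below the array medians throughout a group. Csf1r was bright too (722, 1237 and 517), but its difference of -0.79 between CL+CX and CL livers was not called (adjusted p = 0.0538, limma). The Kupffer cell markers, 5 in all, had none called in CL+CX against CL livers and 3 higher in CL against NC livers (median 1.27), and summed to 661 to 963 in CL+CX livers, 646 to 2513 in CL livers and 284 to 735 in NC livers. Of 7 sinusoidal endothelial markers, 2 fell in CL+CX against CL livers and none in CL against NC livers, with sums of 599 to 1304, 1227 to 1583 and 1065 to 1337 in CL+CX, CL and NC livers. Of 6 stellate cell markers, 1 fell in CL+CX against CL livers and 2 rose in CL against NC livers. Their sums were 2614 to 3185, 3353 to 4575 and 2253 to 2676 in CL+CX, CL and NC livers. Hepatocyte markers, 8 in all, had none higher and none lower in CL+CX against CL livers, and 2 of them, Hnf4a (-0.56, adjusted p = 0.0224) and Tat (-1.07, adjusted p = 0.0125), fell in CL against NC livers (median -0.39), with summed signals of 34797 to 43463 in CL+CX livers, 30976 to 52037 in CL livers and 46393 to 59818 in NC livers. The part of the cell makeup in the values of Pltp, Abcg1, Mylip and Smpdl3a was not tested.

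**Figure D3:**
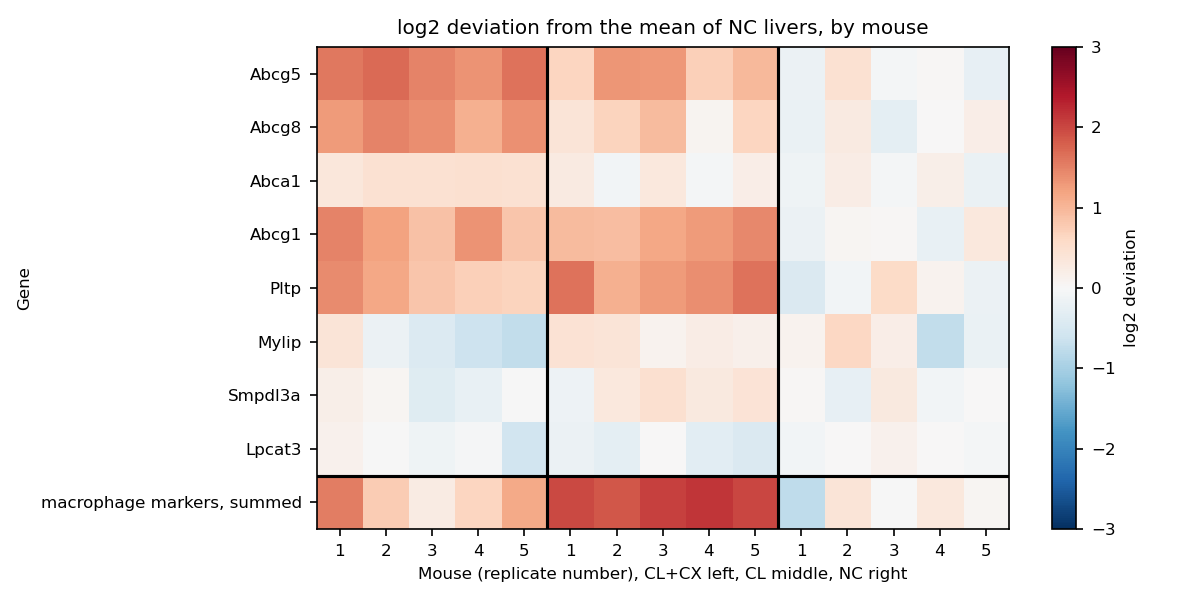
Deviation of each mouse from the mean of the NC livers, in log2 units (colour), for the 8 genes (rows) and, below the line, the summed signal of 12 macrophage markers; columns are the mice of CL+CX (left), CL (middle) and NC (right). Abcg5 and Abcg8 are deepest in the CL+CX columns, and the macrophage sum is deepest in the CL columns.

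For each of the 4 members called in CL against NC livers, the genes outside the list with the most similar profile were ranked by the root mean square difference of log2 deviations from the NC mean over the 15 livers, where 0 is an identical profile. Those nearest to Abcg5 were Limd2 (0.306), Fabp2 (0.315), which encodes the intestinal fatty acid binding protein, and Srebf1 (0.361), which encodes the lipogenic regulator SREBP1. Those nearest to Abcg8 were Hnmt (0.240), the histamine N-methyltransferase, Irf2 (0.283) and Mtss1 (0.334). Abcg5 and Abcg8 were each other's nearest member (0.336). Nearest to Abcg1 were Limd2 (0.241), Tmem51 (0.275) and Slc20a1 (0.283), a phosphate transporter. Nearest to Pltp were Rab32 (0.240), Tspan13 (0.251) and Spi1 (0.288), the last of which encodes the myeloid transcription factor PU.1. Abcg1 and Pltp were each other's nearest member (0.338).

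Among the receptors, Nr1h3 was called in no comparison, with a mean of 166 ± 15 in CL+CX livers, 191 ± 57.9 in CL livers and 175 ± 34.4 in NC livers (SD, n = 5 each). Nr1h2 had no probe set under its symbol alone. Rxra, the main RXR of hepatocytes, rose in CL+CX over CL livers, with a mean of 645 ± 54.1 in CL+CX livers and 445 ± 50.5 in CL livers (0.54 ± 0.12, log2, SE, adjusted p = 0.0258), and fell in CL livers against 591 ± 63.2 in NC livers (-0.41, adjusted p = 0.0307). It was 0.13 higher in CL+CX than in NC livers, without a call. The CL+CX call was lost without CL+CX mouse 2, 3, 4 or 5 (adjusted p 0.0516 to 0.0804), and the CL call without NC mouse 1, 2, 3 or 5 or CL mouse 1 or 4 (0.0517 to 0.0769). With all mice, the CL call was lost with quantile normalization (-0.313, adjusted p = 0.121), on the signals as deposited (-0.094, 0.767), with no filter (0.119), with only the 2 groups compared (0.0762) and with the β-actin covariate (0.135), and the CL+CX call was lost as deposited (0.255), with no filter (0.136), with only the 2 groups compared (0.0646) and with the covariate (0.877). Ttc39b, a scaffold protein that promotes LXR degradation in mouse, averaged 63.3 in CL+CX livers, 51.5 in CL livers and 87.7 in NC livers. It fell by 0.77 in CL against NC livers (adjusted p = 0.000843), and the CL+CX livers were lower than the NC livers too (-0.47, adjusted p = 0.0241). The Ttc39b call in CL+CX against NC livers was lost without NC mouse 1 or 2 or CL+CX mouse 1 or 3. No filter and the β-actin covariate lost it too. On the signals as deposited, both Ttc39b calls were lost. Of 8 receptors and co-regulators tested, 1 rose and none fell in CL+CX against CL livers, and none rose and 2 fell in CL against NC livers. Over all genes tested, 1.48% were higher in the first comparison and 6.76% lower in the second.

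Of 4 enzymes that make or clear sterol ligands, 1 was called. Of all genes, 6.76% were lower in CL and 4.85% lower in CL+CX against NC livers. Cyp7b1, the oxysterol 7α-hydroxylase, fell in CL livers (-1.13, adjusted p = 0.0349) and in CL+CX livers (-1.40, adjusted p = 0.0157) against NC livers, and averaged 1262 in CL+CX livers, 1763 in CL livers and 3288 in NC livers. It spanned 962 to 1736 in CL+CX livers, 802 to 4015 in CL livers and 2639 to 3906 in NC livers. The highest CL liver thus lay above all NC livers. Cyp27a1, the sterol 27-hydroxylase, was called in no comparison (means of 2160, 2242 and 2536 in CL+CX, CL and NC livers).

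Of 16 other LXR targets tested, 8 rose and none fell in CL against NC livers (median 0.46, with 7.20% of all genes higher), and 6 of the 8 not called had differences below 0, from -1.39 in Cyp7a1 to -0.17 in Tmem135. Between CL+CX and NC livers 8 rose and none fell (median 0.62, with 5.11% of all genes higher). Over the 11 other settings these counts of rises ran from 5 to 8 and from 4 to 9. The counts of falls ran from 0 to 1 in both comparisons. Without CL mouse 2, 3 of these targets fell in CL against NC livers. The largest rises in CL livers were those of Lpl, lipoprotein lipase (2.20, adjusted p = 4.8e-05), Cd5l, a macrophage protein (1.84, adjusted p = 0.000656), Scd2, a desaturase (1.75, adjusted p = 0.00513), and Srebf1 (0.83, adjusted p = 0.0115). Between CL+CX and CL livers 1 rose and 1 fell, beside 1.48% and 1.78% of all genes. Acaca, the acetyl-CoA carboxylase of fatty acid synthesis, rose by 0.72 (adjusted p = 0.04), and Lpl fell by 0.90 (adjusted p = 0.0408). The Acaca call was lost without NC mouse 1, 2, 4 or 5, CL mouse 1, 2 or 4, or CL+CX mouse 2, 3, 4 or 5. The Lpl call was lost without NC mouse 3 or 5, CL mouse 1, 3, 4 or 5, or CL+CX mouse 2, 3, 4 or 5. Both were lost with no filter, as deposited, with only the 2 groups compared and with the β-actin covariate.

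Srebf1 had the same order of means as Abcg5 and Abcg8. It averaged 600 ± 108 in CL+CX livers, 364 ± 93.2 in CL livers and 205 ± 58.5 in NC livers (SD, n = 5 each), with CL+CX and CL livers differing by 0.74 (adjusted p = 0.0508, not called). This difference was called without NC mouse 3 (adjusted p = 0.0383) or without CL mouse 3 (0.0346), and, with all mice, in 6 of 11 other settings (adjusted p 0.0125 to 0.0419). Its rise in CL over NC livers was lost with no filter (adjusted p = 0.0525) and with the β-actin covariate (0.0523). Scd1, the main stearoyl-CoA desaturase of liver, rose by 0.51 in CL against NC livers (adjusted p = 0.0253), a call lost without NC mouse 1, 2, 4 or 5 or CL mouse 3 (adjusted p 0.0546 to 0.0627), or with no filter, the test of the methods or only the 2 groups compared (0.0615 to 0.0994), and averaged 8094 in CL+CX livers, 7761 in CL livers and 5465 in NC livers. Cyp7a1, the rate-limiting enzyme of bile acid synthesis, spanned 223 to 459 in CL+CX livers, 123 to 1086 in CL livers and 531 to 919 in NC livers. Its difference between CL and NC livers was -1.39 (adjusted p = 0.0593), not called here but called without CL mouse 2 (-1.88, adjusted p = 0.0022) and, with all mice, under the filter at the 75th percentile, the offset of 16, the test of the methods or the replicate block (adjusted p 0.0291 to 0.0464).

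The cholesterol synthesis and SREBP2 list ran the other way. Of its 19 genes tested, none rose and 13 fell in CL against NC livers (median -0.81, with 6.76% of all genes lower). None rose and 6 fell in CL+CX against NC livers (median -0.49, with 4.85% of all genes lower). The count of 13 was 8 without NC mouse 3 or 5, 8 with only the 2 groups compared or the test of the methods, and 6 with no filter, the signals as deposited or the β-actin covariate. The largest falls in CL livers were those of Msmo1, the sterol C4-methyl oxidase (-1.53, adjusted p = 0.00691), Fdps, the farnesyl diphosphate synthase (-1.21, adjusted p = 0.00346), Cyp51, the lanosterol demethylase (-1.15, adjusted p = 0.0021), and Hsd17b7, a 3-ketosteroid reductase (-1.04, adjusted p = 0.000656). In CL+CX against CL livers 1 rose and none fell (median 0.14), beside 1.48% and 1.78% of all genes. It was Fdft1, squalene synthase, with a mean of 309 in CL+CX livers and 194 in CL livers (0.69, adjusted p = 0.041). The Fdft1 call was lost without NC mouse 1 or 5, CL mouse 2, 3 or 4, or CL+CX mouse 1, 2, 3 or 4. It was also lost with no filter, as deposited, with quantile normalization or with only the 2 groups compared. The replicate block, the β-actin covariate and the mean of all probe sets lost it too.

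Of 12 other ABCA, ABCG and canalicular ABC transporters, none was called in CL+CX against CL livers, where 1.48% of all genes were higher and 1.78% lower. In CL against NC livers 1 rose (Abcg3, 1.45, adjusted p = 0.04) and 1 fell (Abca8b, -0.61, adjusted p = 0.0239), beside 7.20% and 6.76% of all genes. Counts this small do not set the relatives apart from the background. At the same canalicular membrane as ABCG5 and ABCG8, the bile salt pump gene Abcb11 averaged 1043 in CL+CX livers, 1026 in CL livers and 680 in NC livers. It was the 1 of the 12 that rose in CL+CX over NC livers (0.62, adjusted p = 0.0453), where 5.11% of all genes were higher. Abcb11 stood 0.56 higher in CL than in NC livers, without a call (adjusted p = 0.0576). Between CL+CX and CL livers its difference was 0.06 (adjusted p = 0.906). The phospholipid floppase gene Abcb4 averaged 1776, 1762 and 1913 in CL+CX, CL and NC livers and was called in no comparison. Among 11 genes of sterol uptake, storage and HDL, 1 fell and none rose in CL+CX against CL livers: Npc2, the lysosomal sterol carrier, with a mean of 580 in CL+CX livers and 816 in CL livers (-0.50, adjusted p = 0.0349). The Npc2 call between CL+CX and CL livers was lost without CL mouse 2, 3 or 4, or CL+CX mouse 2, 3, 4 or 5. No filter, the signals as deposited, only the 2 groups compared, the β-actin covariate and the replicate block lost it too. In CL against NC livers 2 rose, Npc2 (0.59, adjusted p = 0.00425) and the HDL receptor gene Scarb1 (0.43, adjusted p = 0.045), and 3 fell: Apom, an HDL apolipoprotein (-0.66, adjusted p = 0.00797), Npc1, the membrane partner of Npc2 (-0.60, adjusted p = 0.00329), and Lcat, the plasma enzyme that esterifies cholesterol on HDL (-0.45, adjusted p = 0.0241). Scarb1 also rose in CL+CX over NC livers (0.65, adjusted p = 0.0078).

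Of the genes related to the other members, Lpcat2, an inflammatory-cell acyltransferase, rose in CL against NC livers (1.81, adjusted p = 0.0108) and Lclat1, which acylates lysocardiolipin, fell (-0.40, adjusted p = 0.0334), with none of the 5 acyltransferases called in CL+CX against CL livers. Over all genes, 7.20% were higher and 6.76% lower in the first comparison, and 1.48% and 1.78% in the second. Lpcat2 signals in NC livers (3.7 to 23.4) lay around the array medians of 11.3 to 13.5. Vldlr, the only IDOL substrate tested, was called in no comparison and averaged 29.9 in CL+CX livers, 16.3 in CL livers and 24.7 in NC livers. Smpd3, the neutral sphingomyelinase, rose in CL (1.29, adjusted p = 0.00406) and in CL+CX livers (1.55, adjusted p = 0.00203) over NC livers, with means of 44.8 in CL+CX livers, 38.7 in CL livers and 16.1 in NC livers.

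**Figure D4:**
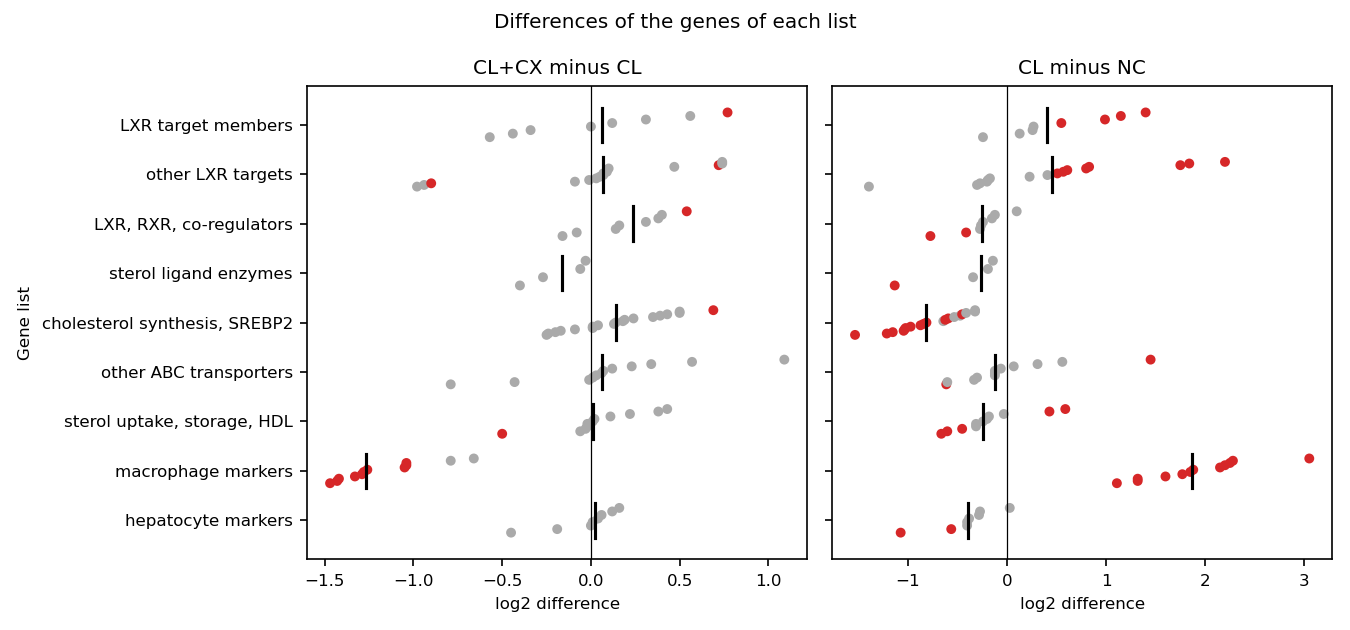
Log2 differences (horizontal axes) of the genes of 9 lists, in CL+CX against CL livers (left) and CL against NC livers (right); each point is a gene, red marks an adjusted p under 0.05 and the short bar is the median of the list. In CL against NC livers LXR target lists lie mainly to the right and the cholesterol synthesis list to the left of 0, whereas in CL+CX against CL livers most genes lie near 0 apart from the macrophage markers.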

How the data were processed

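RNA of each of 15 livers was hybridised by the authors to 1 GeneChip Mouse Genome 430 2.0 array, scanned and summarised as MAS5 signals. As deposited, these are intensity values on a linear scale that had not been scaled between arrays (75th percentiles 41.5 to 79.0, medians 9.48 to 16.7). Detection calls, scaling and tests that the methods describe are not part of the values used. No depth applies, and the number of arrays limits the precision.

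Signals were scaled so that every array had a 75th percentile of 54.1, raised to a floor of 1 (11.3% of values) and put on the log2 scale. The test took probe sets that reached the median of their array throughout the 5 arrays of any 1 group, without 64 control probe sets. Of 45101 probe sets, 34958 had 1 gene symbol, 932 several and 9211 none in the annotation used, and no probe set with several symbols was named. The 3 diet means were estimated together by limma 3.58.1 (R 4.3.3), and p was adjusted by Benjamini-Hochberg across the tested probe sets, with 0.05 as the threshold. The model was tested on simulated data first.

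The members, lists and alternatives were chosen with earlier results of these data known. Named genes were all members, up to 4 called genes per list with the largest change in CL against NC, those called in CL+CX against CL, some pathway neighbours (Nr1h3, Rxra, Srebf1, Scd1, Cyp7a1, Cyp27a1, Scarb1 and Npc1 among them), and the 3 nearest profiles of each called member. Abcb11, Abcb4, Vldlr, Tmem135, Hnf4a, Tat, Ctss, Lyz2 and Csf1r were named after their values were seen. Samples were grouped by their labels, and equal replicate numbers do not pair the mice. The alternatives were other filters, scalings, an offset of 16, the methods' test, other fits, a β-actin covariate and each mouse left out. A comparison of protein sequences was not run. Promoters were searched with Python 3.11.15, pandas 2.3.3 and numpy 2.4.6, and figures were drawn with matplotlib 3.10.9.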

Additional observations from a re-analysis of the deposited data

Results flagged for a closer look

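Among 36 groups of 5 mice (12 probe sets in 3 diets), 4 held a mouse whose gap to the others was larger than Dixon's criterion allows, a criterion that chance passes in about 1 in 20 groups. All 4 were in the CL+CX group. CL+CX mouse 1 had a signal of 121 in the second Pltp probe set, with 71.8 to 79.1 in the other 4 mice, and 1464 in the brightest Abca1 probe set, with 1570 to 1595 in the others. CL+CX mouse 4 had 32.6 in a dimmer Abca1 probe set, with 49.2 to 57.0 in the others. CL+CX mouse 3 had 1.31 in the dimmer Abcg1 probe set, with 19.9 to 32.5 in the others. Without CL+CX mouse 1, the difference between CL+CX and CL livers was 0.336 in Abca1 (adjusted p = 0.158, limma) and -0.557 in Pltp (adjusted p = 0.122, limma), and neither was called.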

How the results depend on the processing

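Over 26 alternatives (11 settings and 15 left-out mice), the members kept direction and side of the threshold in 190 of 208 values for CL+CX against CL, 197 of 208 for CL against NC, and 193 of 208 for CL+CX against NC. In CL+CX against CL 7 of the 8 members were not called, so most of the 190 values stayed uncalled. The call of Abcg8 held in 7 of the 11 settings and in 12 of the 15 fits with a mouse left out. In CL+CX against CL the main counts were 1 member higher, 3 pathway genes higher and 2 lower. All 3 counts were 0 with no filter, with the signals as deposited, with only the 2 groups compared and with the β-actin covariate. The members higher were 2 with the filter at the 75th percentile, quantile normalization, an offset of 16 or a trend with a robust prior, Abcg5 beside Abcg8, and 3 with the methods' test, which called Abca1 too. Abcg5 then had adjusted p of 0.0118 to 0.0435 (0.0118 to 0.855 over all settings). Pathway genes higher were 5 with the 75th percentile filter, the offset or the trend, and 6 with the methods' test, and those lower were 1 with quantile normalization and 4 with the offset. Between CL and NC, 4 members higher became 3 with no filter, only the 2 groups or the covariate (Abcg8 was lost) and 5 as deposited, 13 pathway genes higher became 8 with no filter or the covariate, and 21 lower became 9 with no filter or the covariate, 6 as deposited and 11 with only the 2 groups. In CL+CX against NC, 5 members higher became 3 with the mean of all probe sets, 11 pathway genes higher became 7 with no filter and 6 with the covariate, and 10 lower became 6 with no filter or as deposited and 5 with the covariate. The cause was not tested.

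Signs turned for values that were not called. As deposited, Lpcat3 differed by 0.072 between CL and NC livers and by 0.12 in CL+CX against NC, and Smpdl3a by 0.171 and Nr1h3 by 0.185 in CL+CX against NC. The covariate gave Scd1 -0.173 in CL+CX against CL and Nr1h3 0.005 in CL+CX against NC. The mean of probe sets gave Cyp7a1 -0.011 in CL+CX against CL and Abca1 -0.035 in CL against NC. As deposited, 28.4% of called probe sets were higher in CL+CX against CL (50.5% scaled), 96.2% in CL against NC (48.2%) and 90.3% between CL+CX and NC livers (49.1%), with medians of all probe sets at -0.033, 0.23 and 0.214.

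With each mouse left out, members higher were 0 to 1 in CL+CX against CL, 3 to 4 in CL against NC, with 4 to 5 in CL+CX against NC. Pathway genes higher and lower were 0 to 6 and 0 to 3 in CL+CX against CL, 9 to 12 and 11 to 27 in CL against NC, and 7 to 11 and 8 to 14 in CL+CX against NC. In CL+CX against CL, Abcg1 lay between -0.084 and 0.076 and Cyp7a1 between -0.207 and 0.579. In CL+CX against NC, Smpdl3a lay between -0.138 and 0.001 and Nr1h3 between -0.159 and 0.001, and in CL against NC, Nr1h3 lay between -0.043 and 0.24.

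Mice of the same number correlated at -0.132 to 0.135, so the numbers were not taken as pairs. With the replicate block, pathway genes lower in CL+CX against CL were 1, members higher in CL+CX against NC were 4 (Abca1 was lost, adjusted p = 0.0641), Srebf1 was called in CL+CX against CL (adjusted p = 0.0379), and members higher stayed at 1 in CL+CX against CL and 4 in CL against NC. The DR4 search found 2 member windows with up to 3 mismatches and 0 with up to 2. Probe sets near the array medians of 11.3 to 13.5 carry little precision.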
